A study of Mus musculus with 6 samples.

Results

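The enzymes described here make, split and interconvert serine, glycine and threonine or transfer the amino group of the branched-chain amino acids. They were chosen as every array probe whose annotated gene symbol is Tdh, Gcat, Gldc, Bcat1, Bcat2, Phgdh, Psat1, Psph, Shmt1 or Shmt2. Of these 10 genes, 9 had at least 1 probe, 16 probes in all, among the 19057 genes and 45281 probes of the arrays. No probe carried the symbol Tdh in the annotation used here, so the first enzyme of threonine breakdown is not analysed here. The choice of these genes drew on the measured difference between the cell types, so their values are given as a description without a test.

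The study compared mouse spermatogonial stem cells (SSC), the germ cells of the testis that renew themselves and found spermatogenesis, with embryonic stem cells (ESC), pluripotent cells of the early embryo. Total RNA of 3 SSC samples of strain C57BL/6 and 3 ESC samples, all of the single line R1/E, was labelled with biotin and hybridised to 1-colour Illumina bead arrays, 1 array per sample. No genetic change, treatment, culture condition, animal age or isolation step is given in the sources used here for either group. Strain and cell type cannot be told apart in this design, and because the labels do not call the replicates separate cultures or animals, the spread between them may be technical.

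Cells make serine from a glycolytic intermediate through Phgdh, Psat1 and Psph. The serine hydroxymethyltransferases Shmt1 in the cytosol and Shmt2 in the mitochondrion turn serine into glycine and pass a carbon unit to folate, which feeds nucleotide synthesis and methylation. In mice, Tdh and Gcat split threonine in the mitochondrion into glycine and acetyl-CoA, and Gldc is the decarboxylase of the glycine cleavage system, which releases another carbon unit to folate. Mouse ESC are known for their reliance on threonine breakdown through Tdh. Bcat1 in the cytosol and Bcat2 in the mitochondrion move the amino group of leucine, isoleucine and valine onto a keto acid and back.

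Levels below are log2 values of background-corrected, quantile-normalized probe intensity. A probe counted as detected on an array at a detection p under 0.01 and was kept if 3 or more of the 6 arrays detected it. The 11 probes kept of the 16 represent 8 genes. Differences are SSC minus ESC from limma, given with their standard error over 3 arrays per group. Values of different probes are not set against each other, since probes differ in how brightly they bind.

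Most of these enzymes were lower in SSC, and the size of the difference varied widely among them. Of the 8 genes with a kept probe, 6 were lower by the threshold used across the arrays (adjusted p under 0.05), 1 was higher and 1 did not pass. Over all 10024 genes with a kept probe, 36.5% were lower, 37.9% were higher and 74.4% passed in either direction. By probe, 10 of the 11 kept probes of these genes passed, and 73.6% of all kept probes did. A fall of at least 2-fold was seen for 5 of the 8, and for 15.8% of all genes. The 5 include Shmt1 and Shmt2, whose differences without background correction, −0.93 and −0.98, were short of 2-fold. Nothing is read from these shares, because the same contrast led to the choice of the genes. The median difference of the 8 genes was −1.25 on the log2 scale, and that of all genes was 0.0036. All 3 SSC arrays lay below all 3 ESC arrays for 6 of the 8 genes, a pattern of 37.8% of all genes, and all 3 lay above for 1, a pattern of 39.1%.

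**Figure D1:**
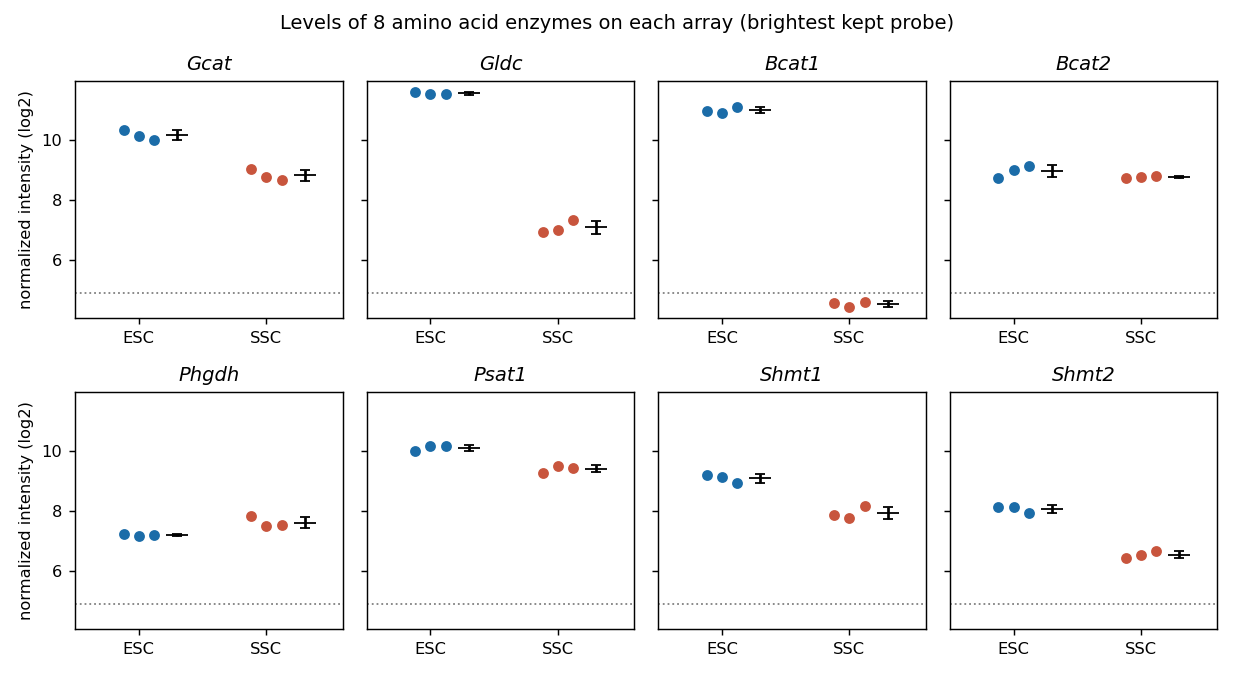
Levels of 8 enzymes on each array, as log2 normalized intensity of the brightest kept probe, with ESC in blue and SSC in red. Each point is 1 array, the black bar is the group mean with its SD (n = 3), and the dotted line is the mean over arrays of the lowest level of a detected probe. Bcat1 lies below that line on the 3 SSC arrays, Bcat2 overlaps between the groups, and Phgdh is the gene whose SSC arrays lie above the ESC arrays.

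The stretches just before the transcription start are shown for the gene with the largest fall in each branch of the pathway, which are Bcat1, Gldc and Shmt2, and for Phgdh, the gene that was higher. They come from RefSeq's annotation of GRCm38.p6, whose table held 12 start sites for 9 of the 10 genes, and each is given 5′ to 3′ on the gene's own strand, which is the minus strand for all 4, and for Bcat1 the outer of its 2 start sites is shown. Capitals mark any match on either strand to the CCAAT box (CCAAT), the GC box (GGGCGG), the E-box bound by Myc proteins (CACGTG) or the element bound by C/EBP and ATF factors, ATF4 among them (TGATGNAA).
Bcat1, chr6:145076158-145076257: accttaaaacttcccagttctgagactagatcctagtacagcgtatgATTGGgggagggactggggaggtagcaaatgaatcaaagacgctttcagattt
Gldc, chr19:30175442-30175541: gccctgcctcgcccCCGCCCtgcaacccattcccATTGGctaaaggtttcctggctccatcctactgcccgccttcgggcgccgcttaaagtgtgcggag
Shmt2, chr10:127522445-127522544: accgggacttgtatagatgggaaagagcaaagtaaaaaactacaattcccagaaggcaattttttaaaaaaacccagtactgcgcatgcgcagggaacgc
Phgdh, chr3:98339970-98340069: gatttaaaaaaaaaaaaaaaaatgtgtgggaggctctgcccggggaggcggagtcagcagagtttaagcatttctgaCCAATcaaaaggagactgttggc
Bcat1 and Gldc each hold a CCAAT box on the opposite strand here, Phgdh holds 1 on its own strand, and the stretch of Shmt2 holds none of the 4 motifs. Over windows of 300 bases, from 250 before to 50 after each start, a CCAAT box was in 6 of the 12 windows of these genes and in 37.4% of all 32851 windows. A GC box was in 5 of the 12 and in 35.7% of all windows, and the motifs do not share letters with each other in the stretches shown. The E-box was in 1 of the 12, at the start of Gcat, and in 7.15% of all windows. The C/EBP and ATF element was in 0 of the 12 and in 3.97% of all windows. A match is a run of letters and not a measured binding site, and no match says only that these letters are not in this window.

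Bcat1, the cytosolic branched-chain aminotransferase, showed the largest difference of these genes. Its level was 10.96, 10.92 and 11.12 on ESC replicates 1 to 3 and 4.60, 4.43 and 4.63 on SSC replicates 1 to 3. The groups lie far apart, and the probe was not well above background on any SSC array, with detection p-values of 0.038, 0.163 and 0.033 there. In the unnormalized table the same probe read 2228, 2146 and 2346 intensity units on the ESC arrays against 110.0, 108.0 and 110.7 on the SSC arrays, where the median probe of an array read between 106.1 and 108.7. SSC therefore have only a bound, and Bcat1 was at least 73.5-fold lower there. Such a bound takes, for each array of the dim group, the level of its dimmest detected probe, which lay between 4.77 and 5.03, or the probe's own level where that is above it. The fitted difference, −6.45 ± 0.12, takes the SSC level at face value, and it was −4.29 without background correction and in the authors' processed table. This and every other bound below hold only under the background correction used.

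The other probe of Bcat1 was not detected on any array and was not tested. It stood at 4.92, 4.87 and 4.78 in ESC and 4.32, 4.28 and 4.29 in SSC. Its detection p-values were 0.017, 0.020 and 0.036 on the ESC arrays, just short of the limit, and between 0.402 and 0.529 on the SSC arrays.

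Bcat2, the mitochondrial aminotransferase of the same reaction, showed a small difference by the probe that was kept. Its level was 8.75, 8.997 and 9.16 in ESC and 8.73, 8.77 and 8.80 in SSC. The groups overlap, since ESC replicate 1 lies within the SSC range, and all 6 arrays detected the probe. The difference was −0.20 ± 0.13 and did not pass the threshold. Without ESC replicate 1 it was −0.31 and passed, and without ESC replicate 3 it was −0.11. The other Bcat2 probe was not detected on any array. The gap between the fitted differences of Bcat1 and Bcat2 was not tested, because both were chosen from this contrast.

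Gldc, the glycine decarboxylase, fell second most, by both of its probes. The brighter probe stood at 11.62, 11.55 and 11.53 in ESC and at 6.93, 7.03 and 7.33 in SSC. The other stood at 9.53, 9.48 and 9.51 in ESC and at 4.99, 5.30 and 5.40 in SSC. On both probes the ESC arrays lay close together, the SSC arrays lay well below them, and SSC replicate 3 was the highest of its group. Both probes were detected on all 6 arrays, so Gldc, unlike Bcat1, was measured in SSC and not only bounded. The brighter probe was 22.2-fold higher in ESC, a difference of −4.47 ± 0.13, and the other was 19.4-fold higher, a difference of −4.28 ± 0.13. In unnormalized intensity the brighter probe read between 3198 and 3618 on the ESC arrays and between 220 and 260.1 on the SSC arrays. Without background correction the difference of the brighter probe was −3.80. The SSC levels of the other probe lay not far above those of the dimmest detected probes. In the authors' processed table it read between 803 and 824 on the ESC arrays and between 118 and 129 on the SSC arrays. That is a smaller ratio than 19.4-fold, so its size depends on the background correction.

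Gcat, which completes the threonine pathway by turning the product of Tdh into glycine and acetyl-CoA, was lower in SSC but remained well detected there. Its kept probe stood at 10.35, 10.16 and 10.02 in ESC and at 9.04, 8.78 and 8.67 in SSC. Every SSC array lay below every ESC array, and the difference was −1.35 ± 0.14, or 2.54-fold. The 2 other probes of Gcat were detected on no array, at levels between 4.16 and 4.55.

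Both serine hydroxymethyltransferases were lower in SSC. The brighter probe of the mitochondrial enzyme Shmt2 stood at 8.13, 8.14 and 7.93 in ESC and at 6.43, 6.53 and 6.67 in SSC. The groups did not overlap, and the difference was −1.52 ± 0.12, or 2.87-fold. It was −0.98 where no background was corrected, and also in the authors' processed table. The other Shmt2 probe, at 6.21, 5.89 and 6.16 in ESC and at 5.03, 4.68 and 4.49 in SSC, was detected on 1 of 3 SSC arrays and gives a bound of at least 2.30-fold lower.

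The brighter probe of the cytosolic enzyme Shmt1 stood at 9.21, 9.13 and 8.93 in ESC and at 7.88, 7.78 and 8.15 in SSC. Its difference was −1.16 ± 0.13, or 2.23-fold, and −0.93 without background correction. The other probe stood at 7.32, 7.32 and 7.60 in ESC and at 6.86, 6.74 and 6.72 in SSC, a smaller difference of −0.64 ± 0.12. Both probes placed every SSC array below every ESC array, and they disagree in size, so that the mean of the 2 probes gave −0.90.

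The first steps of serine synthesis did not move together. Psat1, the aminotransferase of the pathway, stood at 9.998, 10.15 and 10.17 in ESC and at 9.28, 9.51 and 9.44 in SSC. This was a difference of −0.70 ± 0.12, or 1.62-fold, without overlap between the groups. Phgdh, the dehydrogenase that commits carbon to serine, went the other way.

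Phgdh stood at 7.23, 7.18 and 7.22 in ESC and at 7.83, 7.49 and 7.52 in SSC. All SSC arrays lay above all ESC arrays, and SSC replicate 1 was the highest of them. The difference was 0.41 ± 0.13, or 1.33-fold higher in SSC. Without SSC replicate 1 it was 0.30 and did not pass the threshold, and it was 0.27 without background correction. Scaling on array medians, which moved the median difference of all genes to 0.19, gave 0.70. Psph, the phosphatase that completes serine synthesis, had 1 probe, detected on no array at levels between 4.19 and 4.34, and has no comparison.

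**Figure D2:**
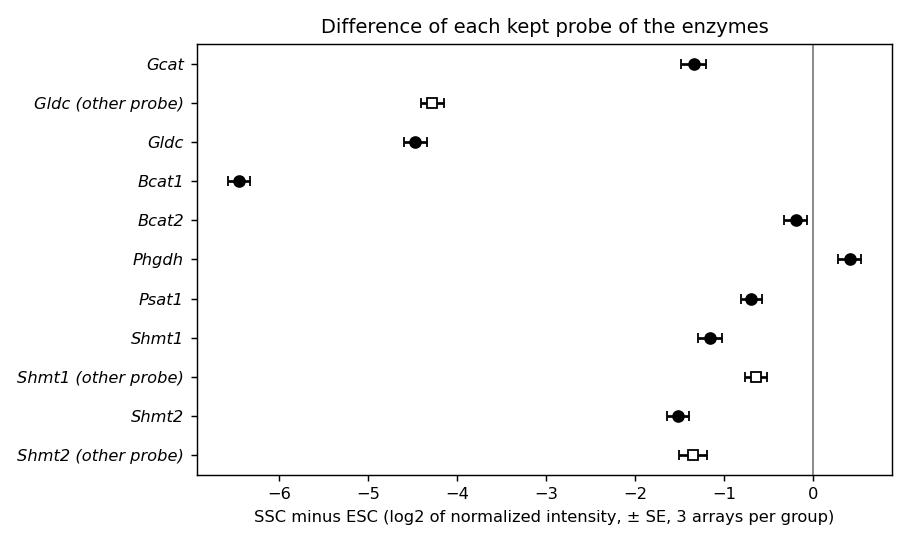
Difference between SSC and ESC for each of the 11 kept probes, in log2 units with the standard error from limma (3 arrays per group). Filled circles are the brightest kept probe of a gene and open squares its other kept probe. The points run from −6.45 for Bcat1, whose SSC level is only a bound, to 0.41 for Phgdh, and the 2 probes of Gldc lie at −4.47 and −4.28 and those of Shmt1 at −1.16 and −0.64.

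Over kept probes, the correlation between 2 arrays lay between 0.989 and 0.993 within a group and between 0.784 and 0.795 across groups. Each array detected 15242 to 17211 probes. Among the 8 genes the SD within a group ran from 0.028 to 0.207, and the median over all kept probes was 0.156. The number of arrays limits the precision of all values.

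Markers of both labelled cell types went with the labels, and markers of testis somatic cells were present in the SSC samples. All 6 listed ESC genes were lower in SSC, and 3 of them, Nanog, Esrrb and Tdgf1, were detected on no SSC array. The summed normalized intensity of these 6 genes was 6629 to 7726 on ESC arrays and 1112 to 1144 on SSC arrays. All 6 listed genes of undifferentiated spermatogonia were higher in SSC, with sums of 5413 to 5848 against 843 to 919. All 6 measured Sertoli cell genes were higher too, with sums of 2837 to 3083 on SSC arrays and 164 to 175 on ESC arrays, where 4 of the 6, Amh, Fshr, Sox9 and Gata4, were not detected on any array. Among the 8 genes for fibroblasts and peritubular myoid cells, 7 were higher, and the sums were 7560 to 8404 against 3002 to 3195, with 5 of the 8 undetected on every ESC array. Of 3 measured Leydig cell genes 2 were higher and 1, Cyp11a1, was lower, and their sums were 429 to 559 against 239 to 248. Sums over 2 macrophage and leukocyte genes, 1 higher and 1 that did not pass, were 66 to 84.3 against 45 to 57.5. The sums of these lists differed between the same groups as the enzymes, and their part in the enzymes' levels was not tested. In bulk RNA, fewer cells of a type that expresses a gene and less of its RNA per cell cannot be told apart.

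Neighbouring enzymes, which are not among the 10 genes, were compared through 5 lists and tested in the fit over all kept probes, each gene by its brightest kept probe. Every adjusted p below is from limma with Benjamini and Hochberg adjustment over the 17435 kept probes. The lists were chosen with earlier results of these data known, and the named genes by the size of their difference. Their adjusted p-values therefore describe single genes and are no independent test of a list. Of all calls over the probes, 49.0% were higher in SSC, or 59.5% under scaling on array medians. Without background correction, 12 of the 23 genes called and named below had differences smaller by more than 1.5 times, and each was still called. These were Cbs, Cth, Gss, Gatm, Gnmt, Mtr, Auh, Pcca, Ppm1k, Chac1, Nupr1 and Atf3.

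Enzymes that carry and use folate-bound carbon units were mostly lower in SSC. Of 13 measured genes of 18 listed, 11 were lower, 0 were higher and 2 did not pass, with a median of −0.77. Of those lower, 4 fell at least 2-fold. Over all genes, 36.5% were lower, 37.9% were higher, and 15.8% were lower by at least 2-fold. Mthfd1, the cytosolic enzyme that interconverts folate-bound carbon units, fell from 10.29 ± 0.075 (SD, n = 3) to 7.67 ± 0.14, a difference of −2.62 ± 0.12 (SE; adjusted p = 6.78e-10). Its other kept probe stood at 0.11, and the mean of the probes was −1.25. Sfxn1, which carries serine into the mitochondrion, was lower, with a difference of −2.53 ± 0.16 (adjusted p = 1.94e-08), and its other probe gave −2.59. Gart, an enzyme of purine synthesis that uses formyl-folate, was lower, with a difference of −1.33 ± 0.13 (adjusted p = 7.10e-07). Under scaling on array medians the list had 8 lower and 1 higher.

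Genes that draw on serine, glycine and threonine went both ways. Of 12 measured of 20 listed, 4 were lower, 2 were higher and 6 did not pass, with a median of −0.15. Over all genes, 36.5% were lower, 37.9% were higher and 74.4% passed in either direction. The enzymes of transsulfuration, which turns homocysteine and serine into cysteine, were detected by their brightest kept probes on the ESC arrays and on no SSC array. Cbs was at least 2.04-fold lower (adjusted p = 2.25e-06) and Cth at least 1.75-fold (adjusted p = 7.73e-06). Without background correction their differences were −0.48 and −0.33, smaller than these bounds. The other kept probe of Cbs gave −1.15. Gss, glutathione synthetase, was lower, with a difference of −1.21 ± 0.14 (adjusted p = 4.98e-06), with other probes between −1.35 and −0.24. Its difference without background correction was −0.49. Srr, serine racemase, was higher by 1.04 ± 0.12 (adjusted p = 3.52e-06), or 0.58 under scaling on array medians, with its other probes between 0.38 and 2.09. Gatm, which uses glycine to make the precursor of creatine, passed detection on the SSC arrays but on no ESC array and was at least 1.05-fold higher (adjusted p = 9.93e-04). With detection required on all 6 arrays, 2 genes of this list were called. Under scaling on array medians 3 were lower and 3 higher. Of the partners of Gldc in the glycine cleavage system, only Dld was measured, at 5.70 in both groups, a difference of 0.0019 ± 0.22 (adjusted p = 0.994). The SSC arrays of Dld spread widely, at 5.17, 6.20 and 5.73. Amt and Gcsh had 1 probe each, which was not kept.

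The methionine cycle and its branches into polyamine synthesis and methionine salvage held genes of both directions. Of 12 measured of 18 listed, 6 were lower, 3 were higher and 3 did not pass, with a median of −0.49, while 36.5% of all genes were lower and 37.9% higher. Srm, spermidine synthase, was lower, with a difference of −2.21 ± 0.15 (adjusted p = 3.49e-08), and its other probes gave −2.52 and −2.30. Enoph1, of methionine salvage, was lower, with a difference of −0.88 ± 0.15 (adjusted p = 1.23e-04). Gnmt, glycine N-methyltransferase, was at least 1.88-fold lower by its brightest probe and detected on 1 of 3 SSC arrays (adjusted p = 6.32e-06), but its other probe stood at 0.48 and the mean of the probes, −0.25, did not pass. Without background correction the difference of Gnmt was −0.30, smaller than its bound. Mtr, methionine synthase, passed detection on the SSC arrays but on no ESC array and was at least 1.21-fold higher (adjusted p = 5.88e-06). Ahcyl1 was higher by 0.52 ± 0.13 (adjusted p = 0.00271), its other probe stood at −0.23, and the mean of the probes, 0.15, did not pass.

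Downstream of the aminotransferases, the mitochondrial enzymes that oxidise branched-chain keto acids mostly showed small differences. Of 19 measured of 23 listed, 9 were lower, 2 were higher and 8 did not pass, with a median of −0.32, and 1 was lower and 1 higher by at least 2-fold, a size at which 15.8% of all genes were lower and 17.5% higher. Auh, a hydratase of leucine breakdown, was lower, with a difference of −2.68 ± 0.13 (adjusted p = 7.91e-10). Its SSC arrays stood at 5.14, 4.95 and 5.11, near the dimmest detected probes, and its difference without background correction was −1.33. Dbt, a core subunit of the branched-chain keto acid dehydrogenase, was lower, with a difference of −0.93 ± 0.15 (adjusted p = 9.41e-05), and Pcca, of propionyl-CoA carboxylase, by −0.82 ± 0.13 (adjusted p = 1.12e-04). Ppm1k, the phosphatase that activates that dehydrogenase, was higher by 1.69 ± 0.13 (adjusted p = 1.10e-07), and Ivd, a dehydrogenase of leucine breakdown, by 0.70 ± 0.12 (adjusted p = 1.39e-04). Under scaling on array medians 7 were lower and 4 higher.

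Genes of the ATF4 response to amino acid shortage, together with enzymes that transfer amino groups, were mostly lower in SSC. Of 18 measured of 24 listed, 14 were lower, 2 were higher and 2 did not pass, with a median of −1.10. The count pools both kinds of gene, and those not lower were the transcription factor genes Atf3, Cebpb, Atf4 and Atf5. Of those lower, 10 fell at least 2-fold. Over all genes, 36.5% were lower, 37.9% were higher, and 15.8% were lower by at least 2-fold. Chac1, which breaks down glutathione, was lower, with a difference of −4.34 ± 0.14 (adjusted p = 2.23e-11). Its difference without background correction was −2.82. Trib3, a pseudokinase induced by ATF4, was lower, with a difference of −3.02 ± 0.13 (adjusted p = 4.28e-10), with its other probes at −1.80 and −1.68. Nupr1, a stress-induced chromatin protein, was detected on 2 of 3 SSC arrays and was at least 14.1-fold lower (adjusted p = 1.08e-09), but its difference without background correction, −2.28, is smaller than that bound. The transcription factor genes Atf3, at 1.58 ± 0.29 (adjusted p = 2.44e-04), and Cebpb, at 0.42 ± 0.12 (adjusted p = 0.00667), were higher. Without background correction Atf3 stood at 0.79. Atf4 itself, named after its values were seen, stood at 11.05 ± 0.28 (SD, n = 3) in ESC and 10.95 ± 0.072 in SSC and did not pass (adjusted p = 0.560). Its other kept probe gave a difference of 2.04, and the mean of the probes, 0.97, passed.

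**Figure D3:**
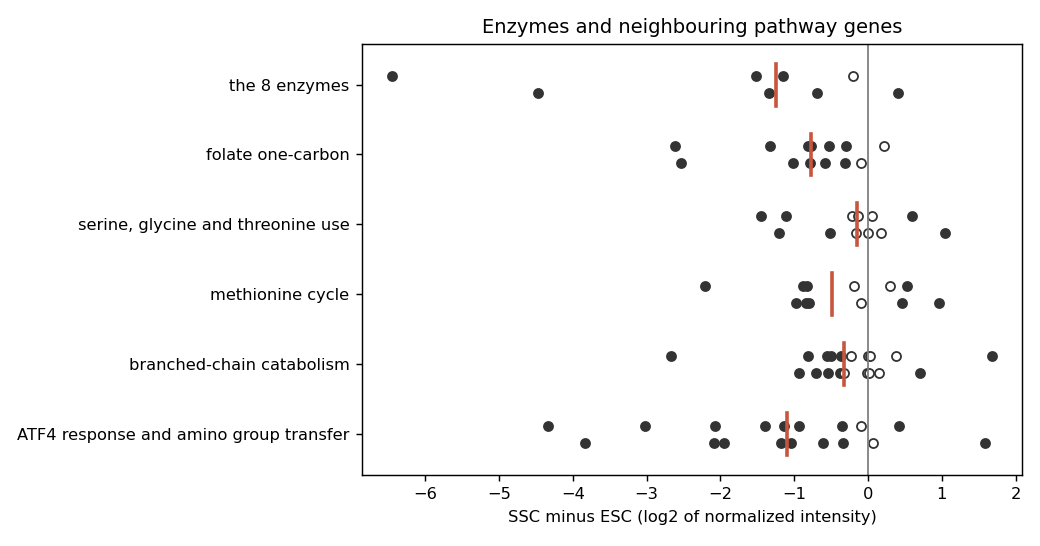
Difference between SSC and ESC in log2 units for the 8 enzymes and for the measured genes of 5 neighbouring lists, each gene by its brightest kept probe. Filled points passed an adjusted p under 0.05, open points did not, and the red bar is the median. The medians run from −1.25 for the 8 enzymes to −0.15 for genes that draw on serine, glycine and threonine.

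The 8 enzymes kept their direction under the ways of processing tried, while some sizes moved. Of 135 recomputed differences, 83 differed in value from the reported one, all 83 with the same sign, and 10 moved by more than 1.5 times. Those were of Bcat1 and Shmt2 with background left in, of Phgdh with background left in and under scaling on array medians, and of Bcat2 under that scaling and without ESC replicate 1 or 3. The counts include both the setting without background correction and the authors' processed values, which gave nearly the same differences and are not separate checks.

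**Figure D4:**
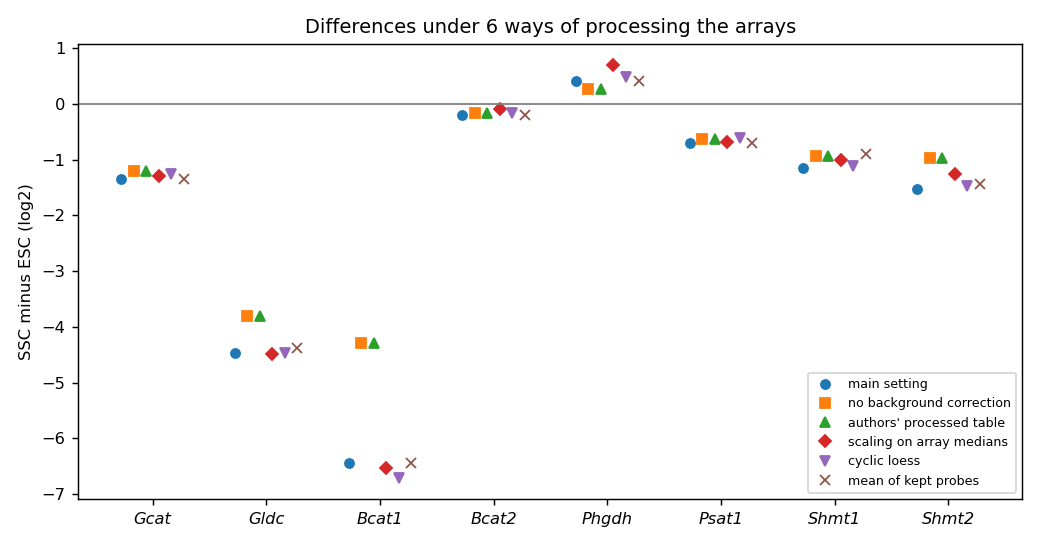
Difference between SSC and ESC in log2 units for each enzyme under 6 ways of processing, which are the main setting, no background correction, the authors' processed table, scaling on array medians, cyclic loess and the mean of a gene's kept probes. Bcat1 moves from −6.45 to −4.29 without background correction, Gldc from −4.47 to −3.80, and no gene changes its side of 0. The authors' processed table gives nearly the same values as no background correction.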

How the data were processed

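The genes and lists were chosen with earlier results of these data known. The deposited table of unnormalized intensity values also gives detection p-values per probe and array, and the submitters' processing notes name GenomeStudio. The authors' processed intensity values, whose columns have medians between 107.09 and 107.14, served as an alternative, and the sources used here do not give their making. They nearly repeated quantile normalization without background correction, with 12440 probes called and −4.29 for Bcat1 under both. Single values differed by up to 2.15 on the log2 scale. These 2 settings are therefore not separate checks of the enzymes.

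Background was corrected by normexp from the detection p-values with an offset of 16, followed by quantile normalization and log2 (limma 3.58.1, R 4.3.3). Of 45281 probes, 17435 were kept and fitted with lmFit and eBayes without covariates. The fit was tested on simulated data. Probes were named by the platform's annotation, of which 34885 had 1 symbol, 18 several and 10378 none, and RefSeq changed 0 symbols. Each gene was read from the kept probe that was brightest on average. All value columns had a sample.

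Named neighbours were, per list, up to 3 called genes of the majority direction and up to 2 against it, by size. Same-numbered samples did not deviate together (correlations of −0.14, −0.068 and 0.030), so the numbers were not taken as pairs.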

Additional observations from a re-analysis of the deposited data

How the results depend on the processing

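Differences were recomputed with cyclic loess or median scaling of the arrays, without correcting background, from the authors' processed values, under 3 other detection filters, with the mean of kept probes, a robust trended prior, a threshold of 0.01 on the adjusted p, a block for the replicate number, and with 1 sample left out at a time, keeping the same probes. Of the 16 probes, 5 were too dim to compare. Of the 8 enzymes, 7 were called, 6 with detection on all 6 arrays, which drops Bcat1, 6 at an adjusted p under 0.01, and 6 to 8 with a sample left out. Over the arrays 12839 probes were called, 9139 to 13658 under the alternatives and 12071 to 12581 with a sample left out. With the replicate number as a block, 12665 were called, the 7 enzymes were still called, and the folate and ATF4 lists had 10 and 15 calls in place of 11 and 16. In the serine, glycine and threonine list 2 genes were called with detection on all 6 arrays, which leaves 7 of its 12 genes, 5 without a filter and 6 under the other alternatives. With a sample left out, calls were 9 to 11 for folate, 6 for serine, glycine and threonine use, 9 to 10 for the methionine cycle, 10 to 11 for branched-chain catabolism and 15 for ATF4. The methionine cycle had 6 calls in place of 9 with the mean of kept probes, 5 lower and 1 higher. With detection on all 6 arrays it also had 6, of which 4 were lower and 2 higher.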
